A study of Mus musculus with 8 samples.

Results

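The 9 genes described here, Areg, Ereg, Hbegf, Inhba, Igf1, Pdgfa, Pdgfb, Vegfa and Thbs1, encode secreted factors through which macrophages act on epithelium, fibroblasts and blood vessels during tissue repair. They were chosen by name among 37018 genes and transcripts on the arrays, through the RefSeq identifiers of the gene probes, and all 9 were measured and passed the filter on dim signals. Earlier results of these data were known at that choice, so their call rates beside those of all features are descriptions. RNA came from adherent peritoneal macrophages of LysMCre-fur(fl/fl) mice (KO) and of WT littermates, all on the C57BL/6 background, which were left unstimulated or were given lipopolysaccharide (LPS) at 1 μg/ml for 1, 4 or 24 h. In KO mice, Cre recombinase made from the lysozyme M locus removes the floxed Furin gene, chiefly in macrophages and granulocytes, and FURIN is an endoprotease that cuts precursor proteins in the secretory pathway. There were 2 arrays per time point, described in the methods as biological replicates (1 and 2). Every array compared a KO with a WT RNA from the same time, each labelled with its own dye. WT RNA was in Cy3 and KO RNA in Cy5 on the arrays of replicate 1, and the dyes were exchanged for replicate 2, so a difference between the replicates and one between the dye orientations cannot be told apart. Times were read from the sample titles, although the labels' growth protocol gives 4 h of stimulation throughout. Age and sex of the mice, and whether animals were pooled, were not given for the arrays in the sources used here.

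Repair factors act in families. Amphiregulin (Areg), epiregulin (Ereg) and heparin-binding EGF-like growth factor (Hbegf) are made as membrane-bound precursors, are shed by metalloproteases and bind the EGF receptor family on epithelial cells and fibroblasts, while activin A, a dimer of the Inhba product, belongs to the TGF-β family and is held back by follistatin. Insulin-like growth factor 1 (Igf1) is a product of resident and alternatively activated macrophages, the PDGF chains (Pdgfa, Pdgfb) recruit mesenchymal cells, Vegfa drives the growth of blood vessels, and thrombospondin-1 (Thbs1) is a matrix glycoprotein that releases TGF-β1 from its latent complex. The precursors of the PDGF chains, of IGF-1 and of activin A are cut by FURIN-like proteases, and the arrays measured mRNA, before that step.

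Signals are given as normalized log2 intensities, in the order replicate 1 and replicate 2, and a difference of 1 is a 2-fold difference. Levels were compared only within a gene, since probes differ in brightness. Between 43.8% and 51.3% of the gene probes were well above background per channel. Of the 7 macrophage markers listed, 6 had a named probe and were well above background in all 16 channels, and none of the 4 endothelial markers was above it in any channel. B cell and mast cell markers (5 of 5 each) and 4 of 5 T and NK cell markers were above background throughout, so the adherent cells were not macrophages alone. In such a mixture, fewer cells of a type and less RNA per cell cannot be told apart. Furin was lower in KO than in WT RNA on both arrays of unstimulated cells (log2 KO/WT -0.59 and -0.85), after 1 h of LPS (-0.56 and -0.55) and after 24 h (-0.59 and -0.69), but not after 4 h, when neither array showed a lower signal (highest value 0.33). Its mean over the time points was -0.44 ± 0.06 (SE, adjusted p = 0.0220). The study reports a larger loss, with Furin mRNA almost wholly missing from macrophages of these mice. Lyz2, the lysozyme M gene into which the Cre is inserted, was lower on all 8 arrays, at 4 h too (-1.04 and -1.13). Because of Furin, the KO channels at 4 h are called RNA labelled KO, and this holds also where a sentence lists KO values of several time points.

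**Figure D1:**
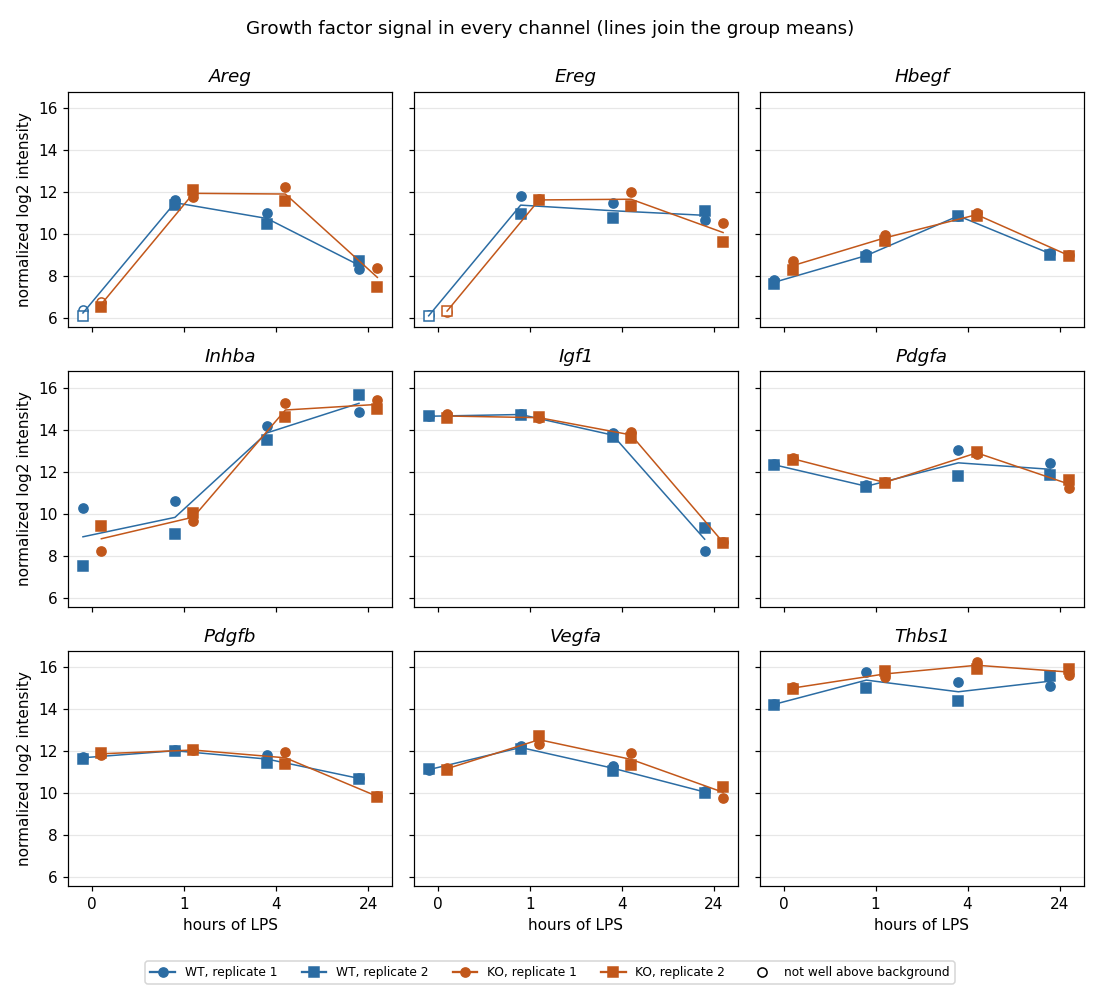
Normalized log2 intensity of each growth factor (y axis) against the hours of LPS (x axis, evenly spaced) in WT (blue) and KO (orange) channels. Circles are replicate 1, squares replicate 2, open symbols channels where the spot was not well above background, and lines join the group means. Areg and Ereg leave the background by 1 h, Inhba climbs from 4 h on and Igf1 drops between 4 and 24 h in both genotypes.

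LPS moved most of these genes in both genotypes. In WT macrophages 6 of 9 passed the test at 1 h, 5 of them higher (background: 8.51% of the 36927 genes and transcripts tested), 5 at 4 h, 4 of them higher (background 34.7%), and 8 at 24 h, 5 of them higher (background 30.4%). KO macrophages had 5 of 9 at 1 h, 4 of them higher (background 7.46%), 6 at 4 h, 5 of them higher (background 36%), and 8 at 24 h, 4 of them higher (background 28.6%). With the replicate as a block, all 9 passed in KO macrophages at 24 h (background 33.1%), since Thbs1 (0.76 ± 0.26) then had an adjusted p of 0.0341 against 0.0602 without it. The median log2 change of the 9 genes in WT cells was 1.06 at 1 h, 0.60 at 4 h, then 1.10 at 24 h, where the median over all features lay between -0.0183 and -0.000906 at these times. In KO cells it was 1.03, 1.09 and 0.48. Markers of other cells moved as well by 24 h: all 5 mast cell markers fell in both genotypes (median -1.77 in WT and -1.40 in KO). Of 5 neutrophil markers 2 passed the test as higher in each genotype, with list medians of 0.22 in WT and 0.05 in KO. S100a8 rose by 3.77 and 4.49, while S100a9 and Ngp were not above background in any channel. Among T and NK cell markers 2 of 5 fell in WT and 3 of 5 in KO cells, and 1 of 5 B cell markers fell in each genotype. The part of these other cells in the changes of the growth factors was not tested.

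Upstream sequences are shown for 3 genes that stand for the early rise (Areg), the late rise (Inhba) and the late fall (Igf1) and have 1 annotated start each in the RefSeq table used (build GRCm38.p6). Each line is the 250 bases before the annotated start, on the strand of the gene, and capitals mark matches to the letters searched on both strands. The letters TGANTCA stand for the AP-1 site. TGACGTCA is the cyclic AMP response element (CRE), and its shorter core TGACG lies within it. The TATA box was searched as TATAAA. The core of the hypoxia response element was searched as ACGTG, and 1 spelling of the NF-κB site was searched too.
Areg, chr5:91139349-91139598, plus strand: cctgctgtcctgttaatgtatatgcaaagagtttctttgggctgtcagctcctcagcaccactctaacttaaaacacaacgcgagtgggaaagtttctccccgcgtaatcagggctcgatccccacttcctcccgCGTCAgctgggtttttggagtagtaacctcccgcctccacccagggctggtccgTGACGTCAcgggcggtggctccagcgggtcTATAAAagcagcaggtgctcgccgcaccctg
Inhba, chr13:16011601-16011850, plus strand: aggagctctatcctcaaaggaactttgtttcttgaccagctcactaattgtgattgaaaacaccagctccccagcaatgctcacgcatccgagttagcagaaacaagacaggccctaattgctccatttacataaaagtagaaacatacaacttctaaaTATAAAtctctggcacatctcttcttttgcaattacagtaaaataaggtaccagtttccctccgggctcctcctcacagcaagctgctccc
Igf1, chr10:87860861-87861110, plus strand: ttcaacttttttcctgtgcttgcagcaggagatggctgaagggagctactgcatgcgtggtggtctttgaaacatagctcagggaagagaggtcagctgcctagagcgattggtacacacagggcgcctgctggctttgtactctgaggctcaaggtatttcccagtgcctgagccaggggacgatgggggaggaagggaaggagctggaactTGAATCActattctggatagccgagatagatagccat

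The Areg sequence held a complete CRE from 61 to 54 bases before the start, a further CRE core on the other strand from 115 to 111 and a TATA box from 31 to 26. Of all 32851 promoter windows of the same length, 1.55% held the complete CRE, 17.8% the CRE core and 12.4% TATAAA. Inhba had TATAAA from 91 to 86 bases before the start. Igf1 had a match to AP-1 from 37 to 31, which 6.75% of all windows held. ACGTG (16.6% of all windows) was found only in 1 of the 2 windows of Vegfa among the 7 windows of 5 of the growth factors, and the NF-κB spelling (1.41% of all windows) in none of the 7. That Vegfa window (chr17:46025164-46025413, minus strand) lies inside the gene, downstream of the other annotated Vegfa start. The window before that other start (chr17:46032378-46032627) held no ACGTG. These matches describe letters in short windows and say nothing about binding.

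Areg and Ereg, neighbouring genes for ligands of the EGF receptor, had large rises by 1 h, the first time measured. The Areg signal of WT macrophages was 6.36 and 6.11 before stimulation, not well above background, and rose to 11.62 and 11.36 at 1 h, 10.99 and 10.49 at 4 h, then 8.34 and 8.69 at 24 h. In KO macrophages it was 6.79 and 6.53 (only the latter well above background), then 11.76 and 12.12, 12.26 and 11.55, and 8.38 and 7.49. In both genotypes every stimulated channel lay above both unstimulated ones, with the lowest stimulated level at 24 h. Against the background, the WT rise was at least 34.3-fold at 1 h (adjusted p = 4.8e-08), at least 19.4-fold at 4 h (adjusted p = 2.4e-08) and at least 4.4-fold at 24 h (adjusted p = 2.7e-05). The baseline of KO cells was partly background, with 1 of 2 channels above it, and their log2 change from it was 5.28 ± 0.29 (SE, adjusted p = 5.7e-08) at 1 h, 5.25 ± 0.29 (adjusted p = 6.0e-09) at 4 h and 1.28 ± 0.29 (adjusted p = 0.00345) at 24 h. Leaving out replicate 1 of 24 h LPS gave 0.83 for the 24 h value, with an adjusted p of 0.0553.

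Ereg was also up by 1 h. The Ereg signal of WT cells went from 6.13 and 6.08, not well above background, to 11.80 and 10.96 at 1 h, 11.48 and 10.74 at 4 h, then 10.66 and 11.12 at 24 h. KO cells showed 6.30 and 6.35, also not well above background, then 11.65 and 11.60, 12.00 and 11.32, and 10.52 and 9.62. The stimulated WT channels of the 3 time points overlapped, while in KO cells both 24 h channels lay below all 1 h and 4 h channels. The rise in WT cells was at least 31.7-fold, 25.7-fold and 22.5-fold at the successive times (adjusted p from 3.6e-08 to 1.9e-07). In KO cells it was at least 36-fold, 37.5-fold and 12.1-fold (adjusted p from 2.1e-08 to 1.1e-06).

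Neither gene passed the test between the genotypes without the replicate block. Areg was 1.27 and 1.06 higher on the log2 scale in RNA labelled KO at 4 h (1.16 ± 0.25, SE, adjusted p = 0.452). With the block the same difference had an adjusted p of 0.0492. At 24 h the replicates parted, with log2 KO/WT 0.04 and -1.20 for Areg and -0.14 and -1.50 for Ereg. The mast cell markers, genes of another cell type that can make amphiregulin, had a median log2 KO/WT of 0.47 over the time points, and none of the 5 passed the test. Their summed signal at 4 h was 12440 and 10070 in WT and 10580 and 21870 in RNA labelled KO, and their part in the Areg value was not tested.

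Hbegf, the third EGF receptor ligand, rose more slowly. Its resting signal was higher in KO macrophages on both arrays, a difference that passed the test only with the replicate block. The Hbegf signal of WT cells was 7.79 and 7.62 unstimulated, 9.03 and 8.92 at 1 h, 10.86 and 10.87 at 4 h, then 9.10 and 9.02 at 24 h. KO cells had 8.70 and 8.28, then 9.96 and 9.67, 11.01 and 10.84, and 9.01 and 8.95. Both KO values lay above both WT values at rest and at 1 h, the genotypes overlapped at 4 h, and the KO values lay just below the WT values at 24 h. From rest, WT cells rose by 1.27 ± 0.14 (SE, adjusted p = 3.2e-05), 3.16 ± 0.14 (adjusted p = 5.9e-10) and 1.36 ± 0.14 (adjusted p = 3.1e-06) at 1, 4 and 24 h. KO cells rose by 1.32 ± 0.14 (adjusted p = 2.7e-05), 2.43 ± 0.14 (adjusted p = 7.1e-09) and 0.48 ± 0.14 (adjusted p = 0.0143). The last value, an increase of 1.4-fold, was 0.27 without replicate 2 of the unstimulated arrays and 0.69 without replicate 1, and its adjusted p reached 0.212 over the arrays left out in turn.

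Pdgfb, Hbegf and Thbs1 were the members that passed a test between the genotypes without the replicate block. Single time points gave 0 of 9 for unstimulated cells (background: 0% of the 36947 tested in limma), 0 of 9 at 1 h (background 0%) and 0 of 9 at 4 h (background 0.0135%). At an unadjusted p under 0.05 limma counted 2, 1 and 3 members at these times, where it counted 2135, 2025 and 1589 of all features. The methods' t-test counted 3, 2 and 0 members and 1694, 1754 and 1128 of all features. At 24 h 1 of 9 passed, Pdgfb (background 0.0244%), with 4 members and 1266 of all features at an unadjusted p under 0.05 in limma, and 1 member and 1514 of all features in the methods' t-test. For the mean over the 4 time points 2 of 9 passed, Hbegf and Thbs1 (background 0.566%), with 5 members and 3940 of all features unadjusted. With the block, Hbegf passed in unstimulated cells (1 of 9, background 1.06%) and at 1 h (1 of 9, background 0.574%), and Areg and Thbs1 passed at 4 h (2 of 9, background 0.566%).

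**Figure D2:**
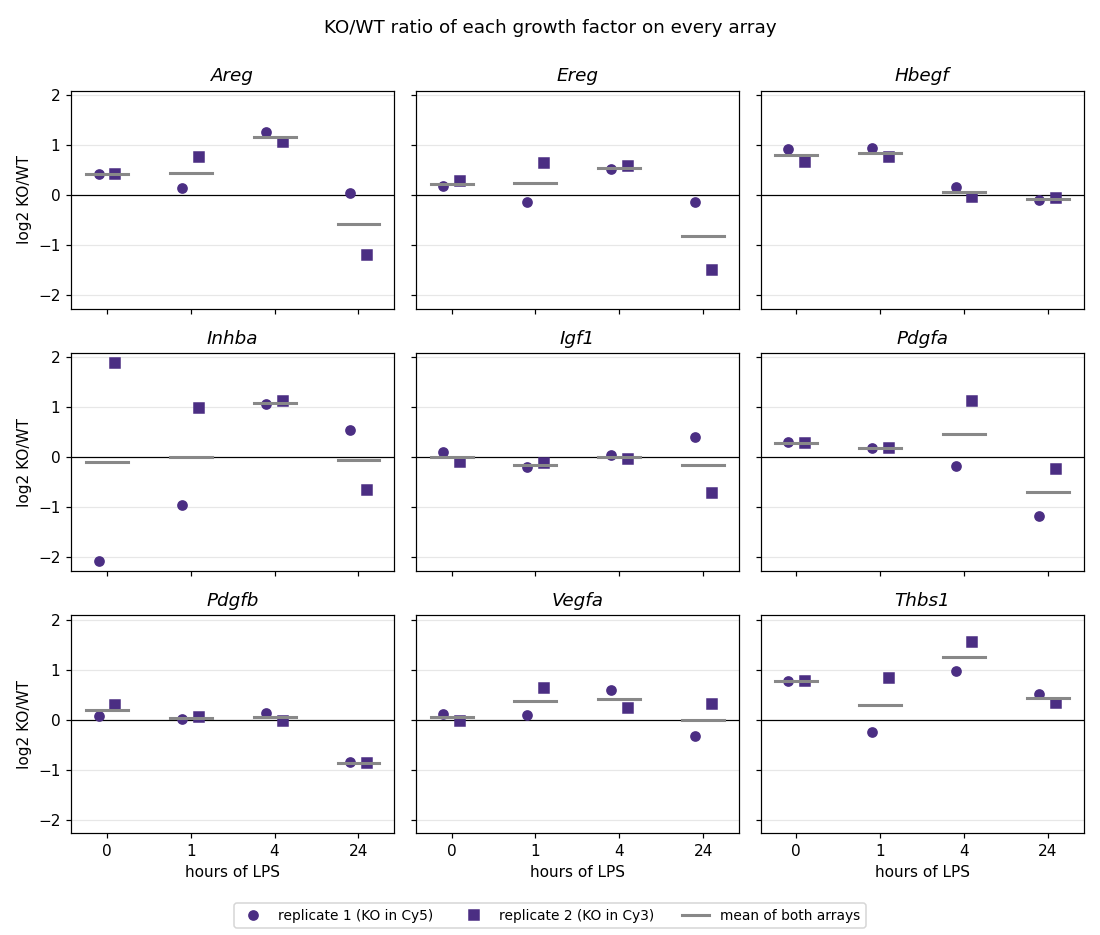
The log2 KO/WT ratio of each growth factor (y axis) on every array against the hours of LPS (x axis). Circles are replicate 1 (KO in Cy5), squares replicate 2 (KO in Cy3), and grey bars the mean of both arrays. Hbegf lies above 0 on both arrays at 0 and 1 h, Pdgfb lies below 0 on both at 24 h, Thbs1 lies above 0 on 7 of 8, and the 2 Inhba arrays oppose each other at 0, 1 and 24 h.

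The KO/WT difference of Hbegf was 0.79 ± 0.10 on the log2 scale in unstimulated cells (SE, adjusted p = 0.105, and 0.00306 with the replicate block) and 0.84 ± 0.10 at 1 h (adjusted p = 0.232, and 0.00648 with the block). It was 0.06 ± 0.10 at 4 h and -0.08 ± 0.10 at 24 h. The mean over the time points was 0.40 ± 0.05 (adjusted p = 0.0231), and it was 0.52 without both 4 h arrays (adjusted p = 0.0451). Leaving out 1 array at a time, it passed in 1 of 8 cases, with adjusted p from 0.0498 to 0.109.

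Thbs1 was higher in KO on 7 of 8 arrays. The Thbs1 signal of WT cells was 14.27 and 14.21 unstimulated, 15.78 and 15.00 at 1 h, 15.30 and 14.38 at 4 h, then 15.11 and 15.57 at 24 h, and that of KO cells 15.04 and 14.98, 15.53 and 15.84, 16.27 and 15.93, and 15.63 and 15.92. The genotypes did not overlap at rest, at 4 h or at 24 h, and they overlapped at 1 h, where replicate 1 gave the single ratio below 0 (-0.24). The mean log2 KO/WT was 0.69 ± 0.11 (SE, adjusted p = 0.046), and 0.50 without both 4 h arrays (adjusted p = 0.218). At 4 h the RNA labelled KO was 1.26 ± 0.23 higher (adjusted p = 0.26, and 0.0108 with the replicate block). Omitting single arrays left the mean past the test in 1 of 8 cases, with adjusted p from 0.0152 to 0.167. Of the markers of platelets, cells that store thrombospondin-1, 2 of 5 were above background in all 16 channels, Gp9 in none, and their summed signal was 498 to 768 in replicate 1 and 506 to 1110 in replicate 2, with a median log2 KO/WT of -0.04 over the time points. Their part in the Thbs1 value was not tested.

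LPS changed Thbs1 moderately in both genotypes. WT cells rose by 1.15 ± 0.28 at 1 h (SE, adjusted p = 0.0201) and by 1.10 ± 0.28 at 24 h (adjusted p = 0.00786), with 0.60 ± 0.28 at 4 h (adjusted p = 0.131). KO cells rose by 1.09 ± 0.28 at 4 h (adjusted p = 0.00714), with 0.67 ± 0.28 at 1 h (adjusted p = 0.217). With 1 array left out, the 1 h value of WT cells was called in 5 of 8 cases (adjusted p up to 0.208), their 24 h value in 6 of 8 (up to 0.104) and the 4 h value of KO cells in 7 of 8 (up to 0.0541).

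Inhba, which encodes the activin βA subunit, rose late, by 4 h. WT cells gave Inhba signals of 10.28 and 7.51 unstimulated, 10.62 and 9.03 at 1 h, 14.19 and 13.50 at 4 h, then 14.85 and 15.66 at 24 h. KO cells gave 8.21 and 9.40, 9.66 and 10.01, 15.25 and 14.62, and 15.40 and 15.01. All channels at 4 and 24 h were above all channels at 0 and 1 h, while the unstimulated and 1 h channels overlapped in WT cells. In KO cells both 1 h channels lay above both unstimulated ones. The log2 increase was 4.95 ± 0.74 at 4 h (SE, adjusted p = 9.5e-05) and 6.36 ± 0.74 at 24 h (adjusted p = 1.3e-05) in WT cells, an 82.1-fold rise at 24 h. It was 6.13 ± 0.74 (adjusted p = 1.3e-05) and 6.40 ± 0.74 (adjusted p = 1.4e-05) in KO cells, 84.5-fold at 24 h. These values rest on single unstimulated arrays: without replicate 1 of them the WT increase was 6.34 at 4 h and 7.75 at 24 h, and without replicate 2 it was 3.56 and 4.97. The KO increase at 24 h was 5.81 without replicate 1, and all of these values passed the test.

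The large error of Inhba came from its low states. In unstimulated cells the log2 KO/WT was -2.08 on the array of replicate 1 and 1.89 on that of replicate 2, and at 1 h -0.96 and 0.98. In each of these 4 arrays the channel labelled with Cy3 was the brighter one, whichever genotype it held. The WT channels of replicate 1 also stood apart in Inha, the gene of the inhibin α subunit, which was above background there at each of the 4 times (7.45 to 7.89) and in no other channel (5.89 to 6.45). Fst, the follistatin gene, was higher in that channel at rest (8.31, against 7.03 to 7.15 in the other 3) and at 1 h (8.82, against 7.59 to 8.09). Their part in the Inhba values was not tested. The dye pattern was absent at 4 h, where both arrays had higher signal in the RNA labelled KO (1.06 and 1.12, mean 1.09 ± 0.78, adjusted p = 1). At 24 h the ratios were 0.55 and -0.65. The direction of a genotype difference in Inhba could not be read at rest, at 1 h or at 24 h.

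Igf1 fell late and steeply. The WT signal of Igf1 was 14.64 and 14.64 unstimulated, 14.74 and 14.71 at 1 h, 13.84 and 13.65 at 4 h, then 8.24 and 9.33 at 24 h. In KO cells it was 14.76 and 14.55, 14.54 and 14.60, 13.88 and 13.63, and 8.65 and 8.62. The genotypes overlapped at each time but 1 h, where both KO values lay slightly below (-0.19 and -0.11), and the 24 h channels lay far below all others. WT cells fell by 0.90 ± 0.24 at 4 h (SE, adjusted p = 0.00849) and fell by 5.86 ± 0.24 at 24 h (adjusted p = 6.9e-10), a 58-fold decrease. KO cells fell by 0.90 ± 0.24 (adjusted p = 0.0081) at 4 h and fell by 6.02 ± 0.24 (adjusted p = 6.3e-10) at 24 h, a 64.8-fold decrease. The 4 h call was kept in 5 of 8 cases in WT and 6 of 8 in KO cells with 1 array left out, with adjusted p up to 0.0714 and 0.0787. A second probe, above background in all 16 channels, changed by -0.85 in WT and -0.91 in RNA labelled KO at 4 h and by -5.67 in WT and -5.93 in KO cells at 24 h. The 2 further probes were above background in 13 and 14 of 16 channels, had changes of -2.83 and -1.55 in WT and -2.72 and -1.50 in RNA labelled KO at 4 h, and also had lower means at 24 h. With the mean over all probes the 4 h change was -1.53 in WT (adjusted p = 6.7e-06) and -1.51 in RNA labelled KO (adjusted p = 7.9e-06). Of the 6 macrophage markers, 4 fell and 1 rose at 4 h in WT cells and in RNA labelled KO (list medians -0.865 and -1), where 34.7% and 36% of all features were called. At 24 h 4 fell and 1 rose in WT cells, and 4 fell in KO cells (30.4% and 28.6% of all features called). At 24 h Adgre1, a surface marker gene of mature macrophages, did not pass the test (-0.25 in WT and -0.36 in KO), Cd14 rose in WT cells (0.78), and Mertk had the largest fall in WT cells (-2.76). The part of cell numbers in the Igf1 value was not tested.

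**Figure D3:**
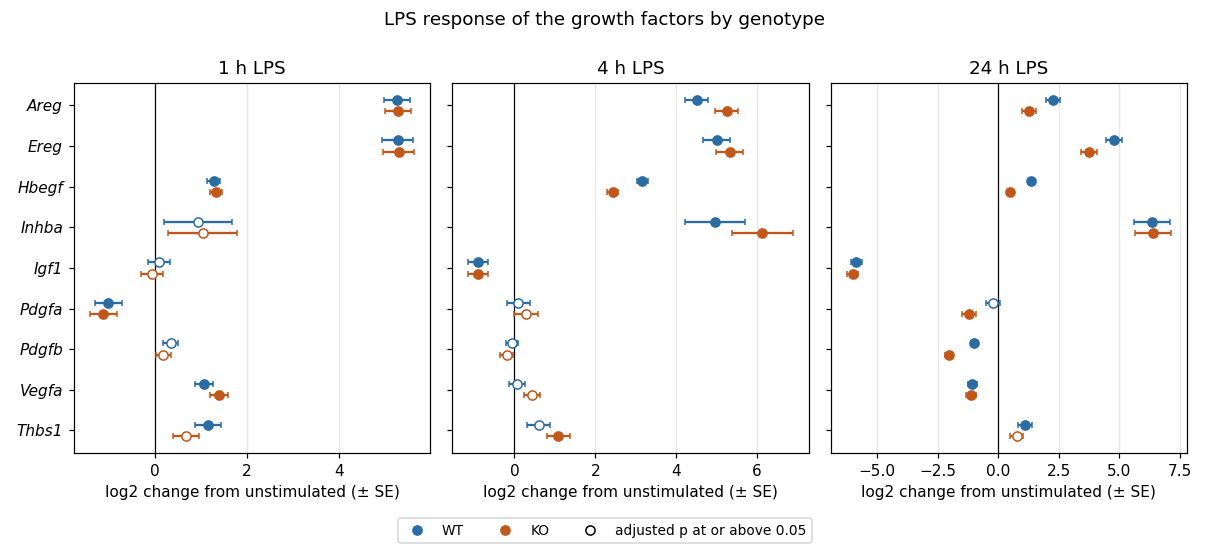
The log2 change (x axis) of each growth factor from unstimulated cells after 1, 4 and 24 h of LPS, in WT (blue) and KO (orange) macrophages. Points are fitted changes, bars their standard errors, and open points did not pass the test. At 24 h the points of Igf1 lie at -5.86 in WT and -6.02 in KO, those of Inhba at 6.36 and 6.40, and those of Pdgfb at -0.98 and -2.03.

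Neither PDGF chain passed the test for LPS at 4 h, and Pdgfb was the member that passed the test between the genotypes at 24 h. The Pdgfb signal of WT cells was 11.75 and 11.64 unstimulated, 12.05 and 12.00 at 1 h, 11.84 and 11.42 at 4 h, then 10.73 and 10.68 at 24 h. KO cells had 11.83 and 11.93, 12.07 and 12.05, 11.98 and 11.40, and 9.88 and 9.82. At 24 h both KO channels lay below both WT channels, by 0.85 and 0.86 on the log2 scale (1.81-fold lower), where before the ratios ran from -0.02 to 0.29. The difference passed the test (-0.86 ± 0.09, SE, adjusted p = 0.0446), though in none of 8 cases with 1 array left out (adjusted p from 0.0669 to 0.386). A second, dimmer probe of Pdgfb gave -0.43 at 24 h, and with the mean of both probes the difference no longer passed. The summed signal of the macrophage markers at 24 h was 242800 and 263200 in WT and 171300 and 149300 in KO cells. The sum includes Lyz2, the gene into which the Cre is inserted. Of the 6, only Lyz2 passed the test as lower in KO cells (median log2 KO/WT of the 6 -0.28). At rest the sum was also lower in KO cells (449800 and 446400, against 627200 and 531100 in WT). At 4 h the replicates parted (364900 and 390500 in RNA labelled KO, 442400 and 359600 in WT). The part of the macrophage markers in the Pdgfb value was not tested. From rest, Pdgfb fell by 0.98 ± 0.16 in WT cells (adjusted p = 0.000235) and by 2.03 ± 0.16 in KO cells (adjusted p = 3.0e-07) at 24 h. The second probe gave smaller changes, -0.51 in WT and -0.97 in KO cells.

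Pdgfa dipped at 1 h and recovered. WT signals of Pdgfa were 12.36 and 12.29 unstimulated, 11.34 and 11.27 at 1 h, 13.03 and 11.81 at 4 h, then 12.39 and 11.83 at 24 h, and KO signals 12.66 and 12.57, 11.52 and 11.45, 12.86 and 12.93, and 11.23 and 11.59. The 1 h channels of each genotype lay below its unstimulated ones, and so did the 24 h channels of KO cells, while at 24 h the WT channels spanned the unstimulated level. Pdgfa fell by 1.02 ± 0.29 (SE, adjusted p = 0.0447) in WT and by 1.13 ± 0.29 (adjusted p = 0.0298) in KO cells at 1 h. At 24 h KO cells fell by 1.20 ± 0.29 (adjusted p = 0.00547), with -0.21 ± 0.29 in WT cells (adjusted p = 0.688). The log2 KO/WT at 24 h was -1.16 and -0.24 (-0.70 ± 0.28, adjusted p = 1). Both 1 h values were called in 4 of 8 cases with 1 array left out, with adjusted p up to 0.24 in WT and 0.205 in KO cells, and the 24 h value of KO cells was called in 7 of 8 (up to 0.0513). A second probe of the gene moved the same way at each of these times.

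Vegfa, which drives the growth of blood vessels, peaked at 1 h and ended below its resting level. WT signals of Vegfa were 11.09 and 11.15 unstimulated, 12.26 and 12.10 at 1 h, 11.31 and 11.08 at 4 h, then 10.12 and 10.00 at 24 h. KO signals were 11.21 and 11.13, 12.36 and 12.74, 11.90 and 11.33, and 9.78 and 10.31. The 1 h channels were the highest and the 24 h channels the lowest in both genotypes, and the WT channels at 4 h overlapped the unstimulated ones. Vegfa rose by 1.06 ± 0.20 in WT (SE, adjusted p = 0.0032) and by 1.38 ± 0.20 in KO cells (adjusted p = 0.000501) at 1 h. It fell by 1.06 ± 0.20 (adjusted p = 0.00075) and by 1.12 ± 0.20 (adjusted p = 0.000507) at 24 h. The genotypes overlapped at rest and at 24 h, and the KO channels were higher at 1 h (0.10 and 0.64) and in the RNA labelled KO at 4 h (0.59 and 0.24), which did not pass the test.

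Whether LPS acted differently in the 2 genotypes was tested as the change of the KO/WT ratio from rest. The count was 0 of 9 at 1 h (background 0%, 0 members at an unadjusted p under 0.05), 0 of 9 at 4 h (background 0%, 1 unadjusted) and 0 of 9 at 24 h (background 0%, 5 unadjusted) in limma without the replicate block. At an unadjusted p under 0.05 limma counted 512, 1071 and 1231 of all 36947 features in these tests. With the block, 2 of 9 passed at 24 h (background 0.211%). Pdgfb fell further in KO cells, with a difference of -1.05 ± 0.13 (SE, adjusted p = 0.00966, and 0.247 without the block). Hbegf rose less in KO cells, with a difference of -0.87 ± 0.12 (adjusted p = 0.0221, and 0.398 without the block), from a higher resting level. The differences of the other 7 genes at 24 h were not past the test in either fit, so a called change in one genotype and an uncalled one in the other, as for Pdgfa at 24 h, does not show that they differ.

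The partners of these ligands were followed with 8 lists of receptors, other ligands, shedding factors and antagonists. None of their genes passed a test between the genotypes without the replicate block. Among 11 activin and inhibin subunits, receptors and antagonists, 6 rose and 2 fell in WT cells at 4 h and 5 rose and 2 fell in RNA labelled KO, where 34.7% and 36% of all features were called. Fst, encoding the activin antagonist follistatin, rose with Inhba, by 2.77 (adjusted p = 0.00013) and 4.11 (adjusted p = 3.3e-06) at 4 h and by 3.08 (adjusted p = 7.1e-05) and 3.87 (adjusted p = 9.3e-06) at 24 h in WT and KO cells. The receptor gene Acvr2b fell at 4 h (log2 change -2.71 in WT, adjusted p = 3.4e-09, and -2.04 in RNA labelled KO, adjusted p = 5.2e-08). Tgfbr3, the gene of an accessory receptor that binds inhibin, fell at 24 h (-1.76 and -1.90).

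Around the EGF receptor ligands, changes ran both ways. Rhbdf2, whose product escorts the shedding protease ADAM17 to the cell surface, rose by 2.04 (adjusted p = 1.3e-07) and 1.94 (adjusted p = 2.2e-07) at 4 h in WT cells and RNA labelled KO. At 24 h Adam17 itself (-0.58 in WT and -0.48 in KO), Adam10 (-0.82 and -1.03) and Rhbdf1 (-0.54 and -0.75) fell, so that of the 5 shedding genes 1 rose and 3 fell in each genotype, where 30.4% (WT) and 28.6% (KO) of all features were called in either direction. Against the same background, 2 of 5 other EGF family ligands rose at 24 h in each genotype, Nrg1 and Epgn. Nrg1 rose by 3.48 in WT (adjusted p = 0.00019, with 1 of 2 unstimulated channels above background) and by 3.72 in KO cells (adjusted p = 0.00011). Epgn, not well above background at rest, rose at least 1.69-fold in WT (adjusted p = 3.6e-05) and at least 1.47-fold in KO cells (adjusted p = 0.0002). Egfr, of the 4 receptors of the family, rose by 1.27 and 0.96 at 4 h and by 1.46 and 0.92 at 24 h, and Erbb2 fell in KO cells at 24 h (-0.36).

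No gene of the 12 IGF receptors, binding proteins and Igf2 rose after LPS, and 4 fell in WT and 5 in KO cells at 24 h, where 30.4% and 28.6% of all features were called in either direction. At 24 h the receptor gene Igf1r (-1.66 in WT and -1.60 in KO) and the binding protein gene Igfbp4 (-0.85 and -0.78) fell. The receptor gene Insr was already lower at 4 h, when it was not well above background, by at least 3.14-fold in WT cells (adjusted p = 2.2e-07) and about 2.97-fold in RNA labelled KO (adjusted p = 5.9e-07). At 24 h its log2 change was -1.35 in WT and -1.42 in KO cells, the latter with 1 of 2 channels above background. Among 7 PDGF and VEGF receptors, Pdgfrb was not well above background at rest and rose at 4 h, at least 4.86-fold in WT cells (adjusted p = 9.5e-08) and at least 4.01-fold in RNA labelled KO (adjusted p = 1.9e-07). It did not pass the test at 24 h. Nrp2 rose by 1.66 and 1.71 at 4 h, whereas Nrp1, the other neuropilin, fell at 24 h (-1.44 and -1.76). The 6 other ligands of these families included Vegfb, which fell at 4 h (-1.63 and -1.56), and Vegfc (1.47 and 1.21, with 1 of 2 unstimulated channels above background in each genotype), which rose at 24 h. Pgf rose at 24 h by 0.36 in WT cells, with 1 of 2 unstimulated channels above background, and about 1.48-fold in KO cells (adjusted p = 0.0019). Of 5 thrombospondins and thrombospondin-1 receptors, Cd36, a scavenger receptor, fell at 24 h (-3.33, adjusted p = 1.1e-08, and -3.52, adjusted p = 7.6e-09), as did Thbs3 (-0.73 in WT and about 1.68-fold in KO cells, adjusted p = 0.0012), and Cd47 rose by 1.11 and 1.13.

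**Figure D4:**
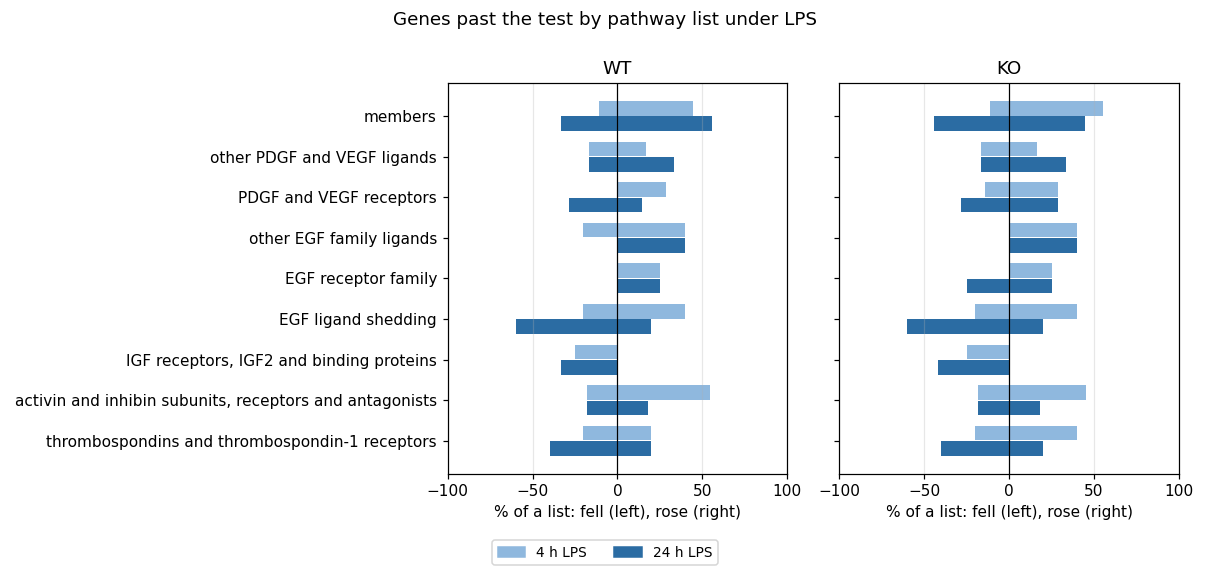
Share of the tested genes of each list (x axis, percent) that passed the test after 4 h (light) and 24 h (dark) of LPS in WT (left panel) and KO (right panel) macrophages. Bars to the right are genes that rose, bars to the left genes that fell. The IGF list has bars to the left only, and the activin list has more genes that rose than fell at 4 h.

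Patterns over the 16 channels were compared by Pearson's r with 12751 other named genes, as a description, since channels of a time point share their treatment. Inhba was closest to Fst (r = 0.984), and Areg to Maff (0.985), which encodes a small bZIP factor. Ereg was closest to Itga5 (0.988) and Cxcl1 (0.984), genes of an integrin and of a chemokine for neutrophils. Igf1 had Fn1 (0.992), the gene of fibronectin, among its closest genes. Pdgfb also had Fn1 among its closest genes (0.951). The closest genes of Vegfa (Arih2, 0.984), Hbegf (Smarca5-ps, 0.977) and Pdgfa (1700020D05Rik, 0.869) are given without a role. The weakest matches were those of Thbs1 (Zfp948, 0.824, and Hif1a, 0.822). Among the growth factors, r was 0.932 for Pdgfb with Igf1 and 0.884 for Areg with Ereg.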

How the data were processed

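RNA of 16 channels on 8 Agilent 2-colour mouse arrays (all on 1 slide) was analysed. The authors scanned the arrays with Agilent Feature Extraction (10.7.3, per the submitters' processing notes) and deposited the intensity of each spot in both dyes, not normalized between arrays. A deposited matrix of normalized log2 ratios (Cy5 over Cy3, column medians from 0.0061 to 0.011) served only as an alternative, and its columns correlated with the ratios computed here at r from 0.987 to 0.996 across genes. Median intensities were processed here with limma 3.58.1 in R 4.3.3: normexp background correction (offset 50), loess within arrays and quantile normalization between arrays, so values are relative to all genes of a channel. Replicate spots were averaged by probe, and a gene was represented by its brightest probe over all arrays (5 members have 1 probe). Tests covered features whose mean log2 intensity reached 6. No spot of a member was saturated.

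The log2 KO/WT ratios were fitted per time point (4 residual degrees of freedom), and LPS changes in a separate-channel fit (statmod 1.5.0, within-spot correlation 0.107 from 5000 genes, 8 residual degrees of freedom). Adjusted p is limma's, by Benjamini-Hochberg over all features tested, with a threshold of 0.05 for a call. Where a probe was not well above background in a group, "at least" folds use, per array, the dimmest signal well above background or the probe's own if higher. These folds were taken after Aquantile instead of quantile normalization. Such a fold is given as "about" where the probe's own signal wholly or nearly set the dim side, so that it is no lower bound. Replicate differences of the KO/WT ratio correlated between time points (r across genes from 0.475 to 0.679 in 6 pairs), and the numbers were taken to pair the samples. Dye orientation goes with the replicate number, so this correlation cannot show that the numbers pair animals. A fit with the replicate as a block, which is also a dye term, was run. The fits were tested on simulated data. Alternatives were the block, processed signals, no background correction, Aquantile normalization, no filter, the mean over all probes, each array left out, the methods' t-test and the deposited matrix. A mean without the 4 h arrays and differences of the ratio between LPS times were chosen after seeing the data. Named genes are the members, Furin and Lyz2 as checks, from each list of partners up to 3 called genes per genotype with the largest LPS change, and the 2 closest genes by r of each member (1 or 2 are given). Adgre1, Cd14, Mertk and S100a8 are markers named after their values were seen, as was Inha. Members and lists were chosen with earlier results of these data known. Array annotation (mm9) gave no positions here.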

Additional observations from a re-analysis of the deposited data

Results flagged for a closer look

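The KO/WT difference of Pdgfb and Hbegf changed with the time of LPS in the fit with the replicate block, by a test of the change itself. For Pdgfb the log2 KO/WT ratio at 24 h was lower, with a difference of -1.05 from rest (adjusted p = 0.00966), of -0.89 from 1 h (adjusted p = 0.0375) and of -0.92 from 4 h (adjusted p = 0.0215). For Hbegf the ratio at 24 h was lower too, with a difference of -0.87 from rest (adjusted p = 0.0221) and of -0.92 from 1 h (adjusted p = 0.026). Both arrays showed each of these directions. Without the block, 0 of 54 such differences over the 9 genes passed limma's test, with 17 (31.5%) at an unadjusted p under 0.05 and the lowest adjusted p at 0.247. Over all features, 2.69% of these differences were at an unadjusted p under 0.05. The 54 share arrays and are not independent of each other.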

How the results depend on the processing

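With the replicate block the number of members called was 1 instead of 0 between the genotypes in unstimulated cells and at 1 h, 2 instead of 0 at 4 h, and 2 instead of 0 for the difference in LPS response at 24 h. It was 9 instead of 8 for LPS at 24 h in KO cells, and beyond these and the differences between LPS times given above the block changed no call of the 9 growth factors with all arrays included. Between the genotypes at 24 h, 0 members instead of 1 were called with processed signals, with the mean over all probes, with the methods' t-test and without each single array in turn (0 to 0). For the mean over the time points, 0 instead of 2 were called with processed signals, 1 without background correction, 1 with the mean over all probes, 1 without both 4 h arrays (3 with the block, then with Pdgfb at -0.21, adjusted p = 0.0438) and 0 to 1 without single arrays. Leaving out single arrays gave 5 to 9 members instead of 8 for LPS at 24 h in KO cells, 5 without replicate 1 of 24 h LPS, and 4 to 7 instead of 6 for LPS at 1 h in WT cells. The methods' t-test, with Benjamini-Hochberg adjustment and 2 samples a group, called 0, 1 and 0 members in WT and 0, 0 and 1 in KO cells at 1, 4 and 24 h, and at an unadjusted p under 0.05 it called 7, 4 and 8 in WT and 6, 7 and 6 in KO cells, where it called 4851, 11474 and 10290 of all features in WT and 5055, 10485 and 9995 in KO cells. No called value changed sign in any alternative. Fold changes of Areg and Ereg rest on unstimulated signals near background, and processed signals gave log2 changes of up to 8.75 and 8.91 at 1 h in WT cells. With 2 arrays per time point, differences as variable as that of Inhba could not be resolved.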
